A study of Mus musculus with 12 samples.

Results

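The genes described here are those of the red cell lineage, namely Alas2, Slc4a1, Ahsp, Klf1, Hemgn, Rhag, Hbb-b1 and Ermap, in hind limb muscle of mice. They were found by gene symbol, and 7 of the 8 had a row among the 23179 rows of each file. Ahsp, which encodes the alpha haemoglobin stabilizing protein, had none. Hbb-b1 is listed only in a joint row with its near-identical copy Hbb-b2, so fragments of those copies cannot be told apart. Expression is in FPKM, fragments per kilobase of transcript scaled to the number of mapped fragments. Of the 7 genes, Alas2 and the Hbb-b1,Hbb-b2 row passed a filter of at least 1 FPKM in at least 3 samples, as did 11945 genes in all.

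The study asked how the muscle transcriptome responds to a high fat diet with and without αB-crystallin (Cryab) and HspB2, small heat shock proteins encoded by neighbouring genes. All 12 mice were males on the FVB background at 22 weeks of age. WT and KO mice were each kept on chow or on a high fat diet, which gave 4 groups of 3. The KO mice lack both Cryab and Hspb2, so the loss of one cannot be separated from the loss of the other. WT mice are called Flox in the titles and wild type littermates in the methods. Groups follow the titles, with which the genotype label of 6 samples conflicts. Cryab lay between 412 and 837 FPKM in the 6 samples titled WT and between 0.845 and 1.75 in the 6 titled KO, and Hspb2 between 81.5 and 103 against 0.353 and 1.92, so each sample stood with its title. The labels name no batch, and the depth in fragments is unknown. Muscle markers were high in all 12 samples, with Ckm, the muscle creatine kinase, between 13276 and 25896 FPKM. Acta1, the skeletal actin, was listed at 0 in 2 samples against a median of 29526.5 over the 12, so a listed 0 can be a failed estimate.

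Red cells form from nucleated precursors in the bone marrow and, in mice, also in the spleen. The transcription factors Gata1 and Klf1 switch on globin genes, the haem pathway and the proteins of the red cell membrane, binding DNA at GATA and CACCC motifs respectively. Late precursors lose their nucleus and become reticulocytes, which keep globin mRNA for a time after leaving the marrow. Blood is part of any muscle sample, so globin mRNA is usual there, whereas membrane and regulatory genes of this lineage are made mostly in the nucleated precursors. In bulk tissue, fewer cells of a type and less RNA per cell cannot be told apart.

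The promoters of the members are shown first, and whether the members share regulation was not tested. RefSeq promoter windows (GRCm38.p6) were at hand for 5 of the 8 genes, Alas2, Klf1, Hemgn, Rhag and Ermap, and the 120 bases ahead of each RefSeq start are printed in the direction of the gene, with the GATA match in capitals. RefSeq starts differ from the ends of the GENCODE spans given with each gene, most for Hemgn.
Alas2, chrX:150547297-150547416, plus strand: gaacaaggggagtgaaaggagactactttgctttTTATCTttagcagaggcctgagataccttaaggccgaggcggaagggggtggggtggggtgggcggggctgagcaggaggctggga
Klf1, chr8:84901862-84901981, plus strand: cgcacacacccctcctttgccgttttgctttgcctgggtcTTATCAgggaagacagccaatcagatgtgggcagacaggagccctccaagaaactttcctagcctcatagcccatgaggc
Hemgn, chr4:46404184-46404303, minus strand: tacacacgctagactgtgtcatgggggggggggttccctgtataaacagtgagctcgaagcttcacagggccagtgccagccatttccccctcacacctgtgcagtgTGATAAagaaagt
Rhag, chr17:40811029-40811148, plus strand: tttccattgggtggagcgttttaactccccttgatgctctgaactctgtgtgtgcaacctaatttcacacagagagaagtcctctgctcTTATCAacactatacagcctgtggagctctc
Ermap, chr4:119189996-119190115, minus strand: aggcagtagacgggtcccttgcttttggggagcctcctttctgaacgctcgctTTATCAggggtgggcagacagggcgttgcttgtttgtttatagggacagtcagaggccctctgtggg
The letters searched on both strands were AGATAA or AGATAG and also TGATAA or TGATAG, which read TTATCT or CTATCT and also TTATCA or CTATCA in reverse complement. All 5 genes held a match in the 250 bases ahead of the start, as did 26.5% of the 32851 windows in the table. The match began 86 bases before the start in Alas2, 80 in Klf1, 13 in Hemgn, 31 in Rhag and 67 in Ermap. CACCC or its reverse complement GGGTG stood in 4 of the 5 windows, all but that of Hemgn, and in 52.0% of all windows. No GATA match overlapped a CACCC match in these 5 genes. A match of letters is a description of the sequence and not a bound site.

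The Hbb-b1,Hbb-b2 row, which encodes adult beta globin, was the most abundant of the 7 genes per length. In WT mice it was listed at 296, 179 and 248 FPKM on chow and at 981, 489 and 726 FPKM on high fat. In KO mice it was at 254, 216 and 265 FPKM on chow and at 572, 212 and 238 FPKM on high fat. The WT high fat samples lay above all WT chow samples, whereas among KO mice on high fat replicate 1 stood apart and the others were within the range of the chow groups. Group means were 241 ± 58.5 (SD, n = 3), 732 ± 246, 245 ± 25.7 and 341 ± 201 FPKM, in the same order of groups. The mean on high fat was 3.04 times that on chow in WT mice.

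Alas2 on the X chromosome encodes the erythroid 5-aminolevulinate synthase, the first enzyme of haem synthesis in red cell precursors. It spans chrX:150547375-150570638 on the plus strand (GENCODE M21, GRCm38). In WT mice its level was 4.43, 2.33 and 4.22 FPKM on chow and 17.7, 8.98 and 13.2 FPKM on high fat. In KO mice it was 4.62, 3.71 and 5.19 FPKM on chow and 11.8, 3.21 and 5.59 FPKM on high fat. As with beta globin, replicate 1 of the KO mice on high fat was higher than the lowest WT sample on high fat, so these 2 groups overlapped. The means were 3.66 ± 1.16 and 13.3 ± 4.35 FPKM in WT mice and 4.51 ± 0.743 and 6.86 ± 4.42 FPKM in KO mice, chow before high fat, and the WT ratio was 3.63. The annotated span of Apex2 on the other strand covers all 23264 bp of Alas2, and the library kit does not mark strand. Apex2 itself stayed between 2.48 and 4.02 FPKM in all 12 samples.

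The 3 membrane genes had their highest values in WT mice on high fat and were under 1 FPKM in every sample of the other groups. Slc4a1 (chr11:102348824-102366203, minus strand) encodes band 3, the anion exchanger that anchors the red cell skeleton. It was listed at 0.0582, 0.145 and 0 FPKM in WT mice on chow and reached 4.48, 0.881 and 2.28 FPKM on high fat. In KO mice it was at 0.713, 0.0803 and 0.176 FPKM on chow and at 0.314, 0.0292 and 0.0573 FPKM on high fat. All 3 WT samples on high fat were above the other 9, with replicate 1 of the KO mice on chow the closest. Rhag (chr17:40811126-40840754, plus strand) encodes the Rh-associated glycoprotein, a membrane partner of the Rh protein. In WT mice it was listed at 0 in all 3 chow samples and at 0.659, 0.0747 and 0.320 FPKM on high fat. Among KO mice it was above 0 only in replicate 1 of each diet, at 0.0744 FPKM on chow and 0.0217 FPKM on high fat. Ermap (chr4:119175457-119190011, minus strand) encodes the erythroblast membrane-associated protein that carries the Scianna blood group in humans. Its level was 0, 0.0802 and 0.0421 FPKM in WT mice on chow and 0.598, 0.146 and 0.336 FPKM on high fat. In KO mice it was 0.159, 0.0444 and 0.0695 FPKM on chow and 0.0577, 0.0377 and 0.0336 FPKM on high fat. For Rhag and Ermap, WT replicate 2 on high fat lay close to KO replicate 1 on chow, just above it for Rhag and below it for Ermap.

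Both regulatory genes likewise had their highest values in WT mice on high fat, but for Hemgn KO replicate 1 on chow was above WT replicate 2 on high fat. Klf1 (chr8:84901928-84905291, plus strand), the erythroid Krüppel-like factor, was at 0.0720, 0.0318 and 0.0333 FPKM in WT mice on chow and at 1.11, 0.219 and 0.772 FPKM on high fat. In KO mice it was at 0.188, 0.0351 and 0.0547 FPKM on chow and at 0.0607, 0.120 and 0 FPKM on high fat. Hemgn (chr4:46393989-46413506, minus strand) encodes hemogen, a nuclear protein of blood-forming cells. It was at 0, 0.0165 and 0.0173 FPKM in WT mice on chow and at 1.16, 0.147 and 0.422 FPKM on high fat. In KO mice it was at 0.252, 0.0364 and 0.103 FPKM on chow and at 0.0320, 0.0156 and 0.0187 FPKM on high fat. Hemgn was the one gene of the 7 whose KO groups did not overlap, with the chow samples above the high fat samples. The lowest values above 0 of these low genes, between 0.0156 and 0.0336 FPKM for Slc4a1, Klf1, Hemgn, Rhag and Ermap, show how little signal separates them from a listed 0.

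**Figure D1:**
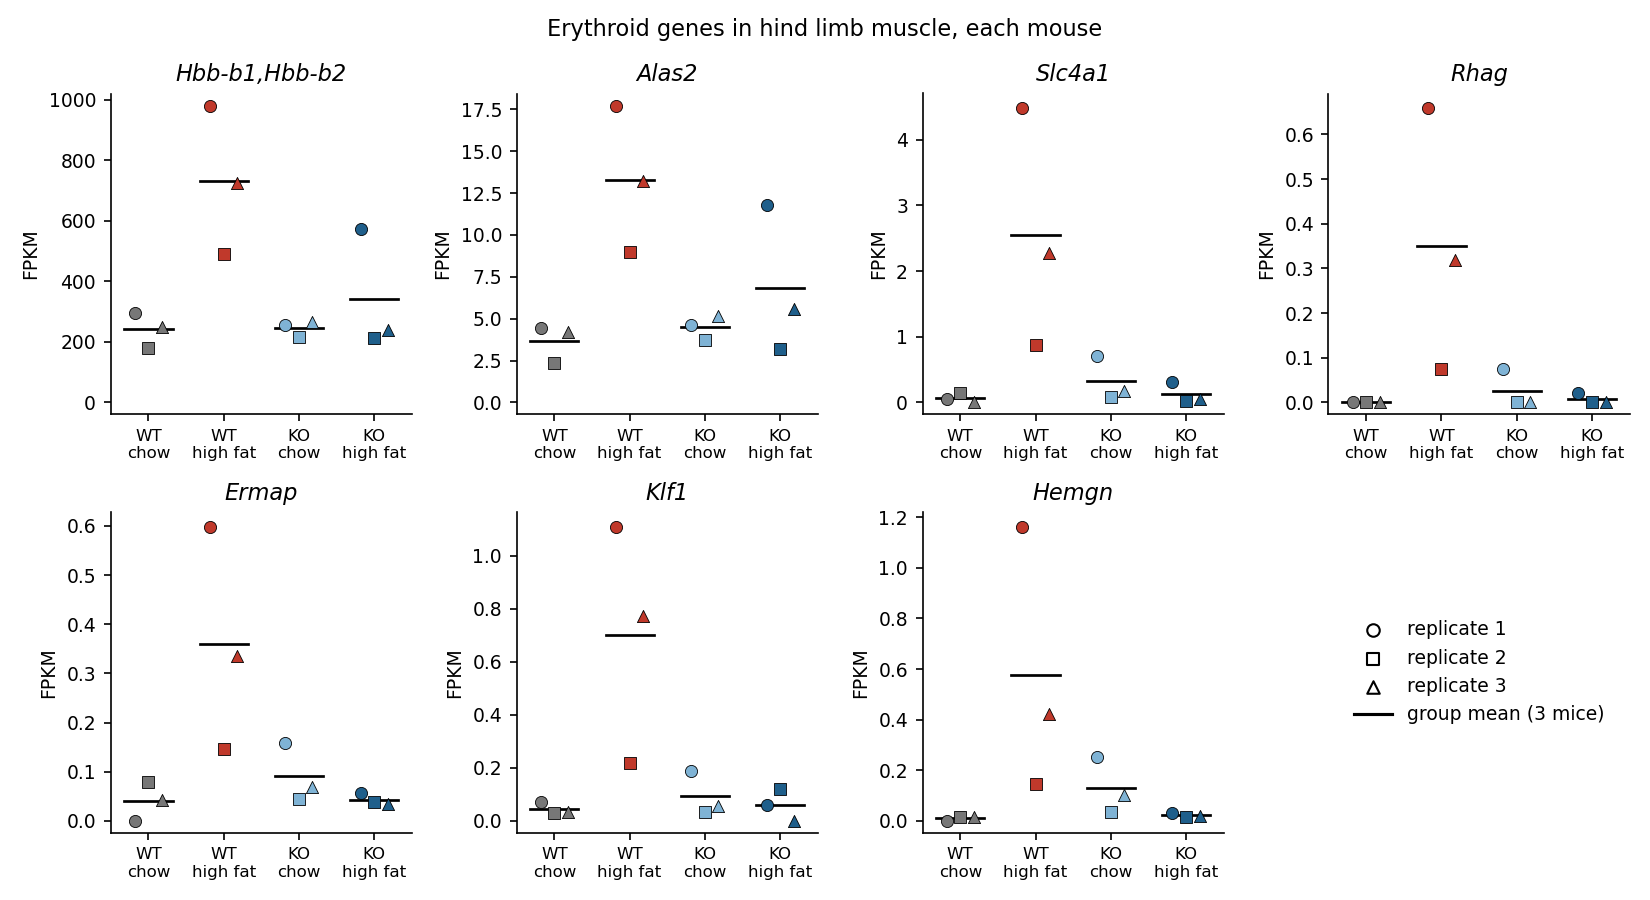
FPKM (vertical axes, linear, each with its own scale) of the 7 red cell genes in each of 12 mice, by group along the horizontal axis, with marker shapes for replicates and bars for the mean of 3 mice. WT mice on high fat hold the 3 highest values of Slc4a1, Klf1 and Rhag, and KO replicate 1 on high fat joins them for Alas2 and the Hbb-b1,Hbb-b2 row.

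Diet in WT mice asked whether these genes differ between high fat and chow with both heat shock proteins present. Every one of the 7 was higher in all 3 high fat samples than in any chow sample, where 5.93% of the 18589 genes above 0 in any sample were. No member passed the test, limma on log2(FPKM + 1) adjusted by the Benjamini-Hochberg method over all genes tested. Alas2 and the Hbb-b1,Hbb-b2 row were taken from the fit of filtered genes, in which 12 genes passed an adjusted p of 0.05 (0.1%). The other 5 were taken from a fit of all 18589 genes without the filter, in which 10 genes passed (0.0538%). On this scale the difference was 1.60 (SE 0.36, adjusted p = 0.132) for Alas2, 1.57 (SE 0.36, adjusted p = 0.135) for beta globin and 1.60 (SE 0.32, adjusted p = 0.135) for Slc4a1. It was 0.66 (SE 0.16, adjusted p = 0.198) for Klf1, 0.59 (SE 0.18, adjusted p = 0.354) for Hemgn, 0.41 (SE 0.12, adjusted p = 0.318) for Rhag and 0.37 (SE 0.10, adjusted p = 0.243) for Ermap. Adding 1 to levels this low understates the relative change of Slc4a1 and of these 4 genes, so equal differences here are not equal ratios. At an unadjusted p of 0.05 all 7 were higher, compared with 4.42% of filtered and 4.77% of all genes. The median difference of the 7, 5 of them from the fit without the filter, was 0.66. It was -0.013 over the filtered genes and -5.6e-06 over all genes. Replicate 2 of the WT mice on high fat was the lowest of its group for each gene. Without it 69 of 18441 genes passed in the fit without the filter (0.374%), against 10 with it, and limma's adjusted p was 0.0147 for Slc4a1, 0.00756 for Klf1, 0.0198 for Rhag and 0.0306 for Ermap. Leaving out the lowest sample by itself raises the group mean, so these p-values are no support for a difference. Alas2, beta globin and Hemgn did not pass with any sample left out. Without replicate 1, the highest, the difference fell to 1.22 for Slc4a1, 0.49 for Klf1, 0.34 for Hemgn, 0.25 for Rhag and 0.25 for Ermap.

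Genotype on high fat compared KO with WT mice on the same diet, and shares the 3 WT high fat samples with the comparison above. All 7 differences were lower in KO mice, between -1.52 for Slc4a1 and -0.37 for Ermap on the log2(FPKM + 1) scale. The groups did not overlap for 5 of the 7, where 8.9% of all genes were lower in KO mice without overlap. Alas2 and the Hbb-b1,Hbb-b2 row were the exceptions, through KO replicate 1. In limma none of the 7 passed, with adjusted p between 0.108 for Slc4a1 and 0.215 for Alas2, and 13 filtered genes did (0.109%). At an unadjusted p of 0.05 all 7 were lower, against 6.45% of filtered and 5.83% of all genes. Without the filter 24 genes passed (0.129%). Leaving out WT replicate 2 on high fat, after which 74 of 18441 genes passed (0.401%) against 24, also brought Slc4a1 (limma adjusted p = 0.0182), Klf1 (0.00521), Rhag (0.0244) and Ermap (0.0298) past the threshold. As that sample was the lowest of its group for each gene, its removal by itself widens the difference and these p-values are no support.

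In KO mice no member passed limma's test for diet, nor did any filtered gene (0%), where 1349 had an unadjusted p under 0.05, and 6 genes passed without the filter (0.0323%). None of the 7 had an unadjusted p under 0.05, as 11.3% of filtered and 10.9% of all genes had. The log2 differences ran from -0.20 for Slc4a1 to 0.37 for Alas2, with adjusted p from 0.657 to 0.971. Only Hemgn separated the groups, being lower on high fat, where 6.66% of all genes did so. With KO replicate 1 on high fat left out, the differences of Alas2 and beta globin turned to -0.06 and -0.12. On normal chow, genotype differences lay between 0.03 and 0.28, with limma adjusted p from 0.685 to 0.948, and again only Hemgn did not overlap, higher in KO mice, as were 7.72% of all genes. None of the 7 had an unadjusted p under 0.05, against 16.7% of filtered and 13.5% of all genes, and 7 filtered genes (0.0586%) and 6 of all genes (0.0323%) passed the test.

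The interaction, the diet difference in KO mice minus that in WT mice, was negative for all 7 genes, from -1.80 for Slc4a1 to -0.44 for Rhag. It passed for none, with limma adjusted p from 0.583 to 0.761, although all 7 had an unadjusted p under 0.05, as did 2.7% of filtered and 3.32% of all genes in that direction. Without WT replicate 2 on high fat it passed for Klf1, at a limma adjusted p of 0.0417, and for 13 of 18441 genes in all (0.0705%), against 1 with that sample. Removing that sample, the lowest of its group for each gene, by itself makes the interaction more negative. No gene passed the interaction with the filter (0%), where 746 had an unadjusted p under 0.05, and 1 gene did without it (0.00538%). Averaged over genotypes, the diet difference was positive for all 7 and the limma adjusted p lay between 0.183 and 0.465. For 6 of them, all but Hemgn, the unadjusted p was under 0.05, against 7.96% of filtered and 6.72% of all genes, and the shares of genes that passed were 0.0586% and 0.0484%. Averaged over diets, the genotype difference was negative for all 7, with limma adjusted p between 0.174 and 0.389. For 3 of them, Slc4a1, Klf1 and beta globin, the unadjusted p was under 0.05, against 13.4% of filtered and 9.58% of all genes, and 0.862% and 0.226% passed.

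**Figure D2:**
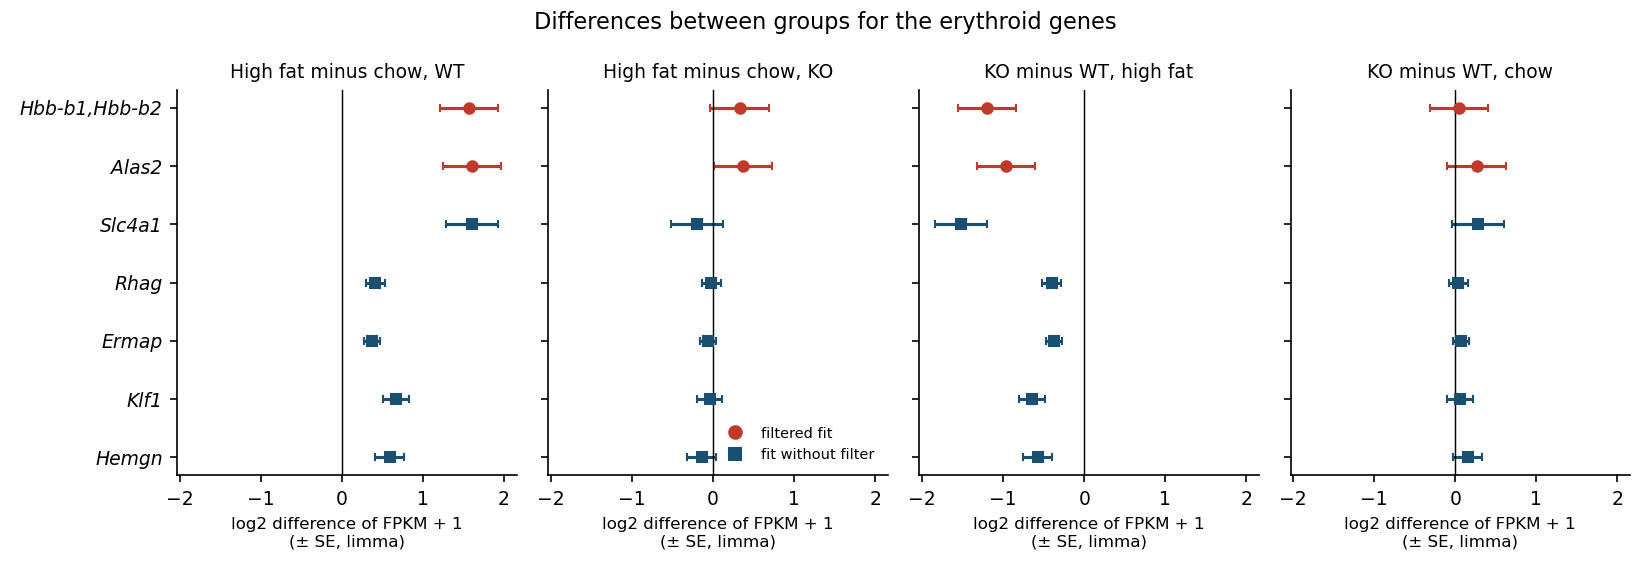
Difference between groups on the log2(FPKM + 1) scale (horizontal axis) with its standard error from limma, for the 7 red cell genes (vertical axis) in 4 comparisons of 3 mice with 3. The 7 points lie between 0.37 and 1.60 for diet in WT mice and between -1.52 and -0.37 for genotype on high fat, against -0.20 to 0.37 for diet in KO mice and 0.03 to 0.28 for genotype on chow.

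Across the 12 mice the 7 genes shared their highest samples but formed a pair of patterns below them. Each was highest in WT replicate 1 on high fat and next in WT replicate 3. That pair of samples was the highest, in either order, for 2.99% of the 18589 genes. In WT replicate 2 on high fat, beta globin and Alas2 stood at 49.8% and 50.8% of their highest values, while Slc4a1, Klf1, Hemgn, Rhag and Ermap stood between 11.3% and 24.3%. KO replicate 1 on high fat was at 58.3% and 66.6% for beta globin and Alas2, and between 2.76% and 9.65% for the other 5. In the opposite way, KO replicate 1 on chow was at 25.9% and 26.1% for beta globin and Alas2, within its group, but between 11.3% and 26.5% for the other 5, above the rest of its group for each of them.

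**Figure D3:**
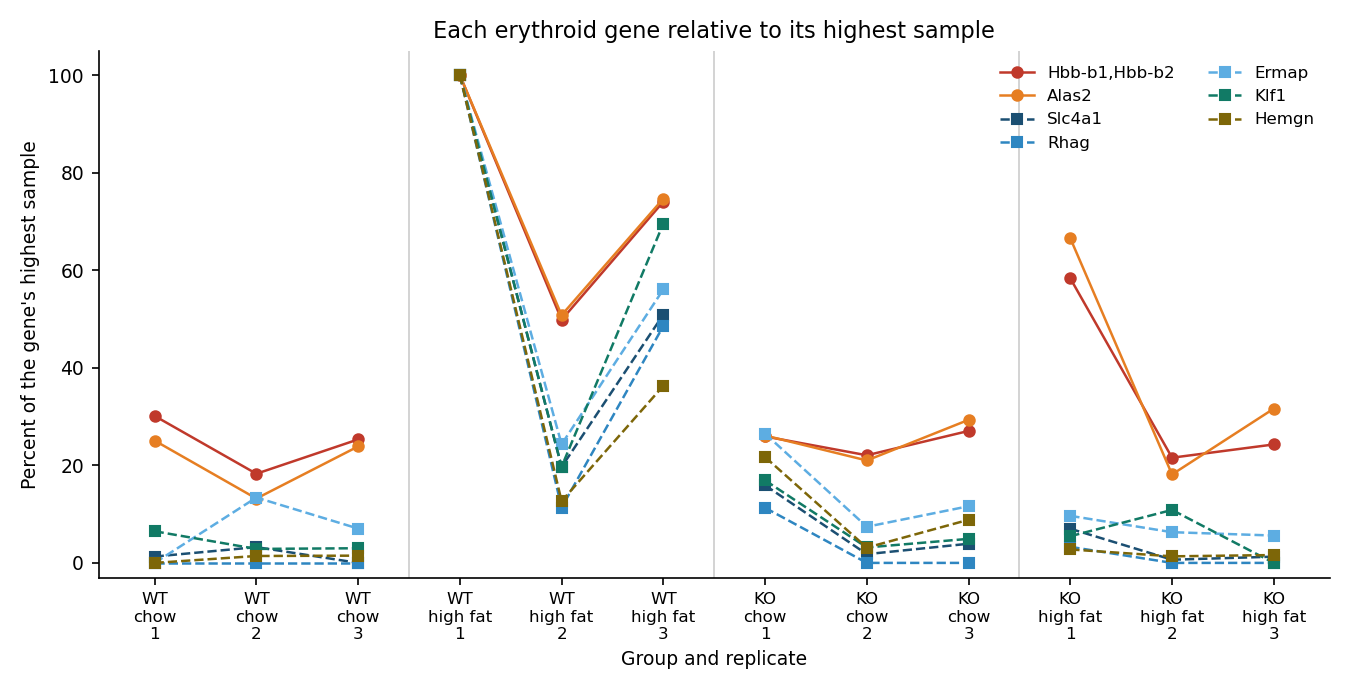
Each gene's FPKM as a percent of its highest sample (vertical axis) in the 12 mice (horizontal axis, by group and replicate), with solid lines for beta globin and Alas2 and dashed lines for the other 5 genes. The solid and dashed lines part in KO replicate 1 on high fat, at 58.3% and 66.6% against 2.76% to 9.65%.

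Per 1000 FPKM of the Hbb-b1,Hbb-b2 row, Alas2 was at 13.0 to 17.0 FPKM in WT mice on chow and 18.03 to 18.37 FPKM on high fat, which did not overlap. It was at 17.2 to 19.5 FPKM in KO mice on chow and 15.2 to 23.5 FPKM on high fat. The alpha globin row Hba-a1,Hba-a2 was 2.06 to 2.86 times as high as the Hbb-b1,Hbb-b2 row. A further adult beta globin row, Beta-s, lay above the Hbb-b1,Hbb-b2 row in every sample, at 360 to 1775 FPKM. It enters none of these ratios, so they are not ratios to all beta globin. Slc4a1 per 1000 FPKM of the Hbb-b1,Hbb-b2 row was instead 4.57, 1.80 and 3.14 FPKM in the WT high fat samples against 0.197, 0.809 and 0 on chow. It was 2.80, 0.371 and 0.663 FPKM in KO mice on chow and 0.548, 0.138 and 0.241 on high fat. Relative to its level, the share of Slc4a1 to that row varied more between mice of one group than that of Alas2. Slc4a1 was under 1 FPKM in every sample outside WT mice on high fat. Counting error is unknown at such levels, so this spread cannot be told from it. As a description over the 12 mice, Pearson's r of log2(FPKM + 1) was 0.978 between Alas2 and beta globin and 0.948 to 0.984 among the other 5 genes. Between the pair and the 5 it was lower, from 0.732 to 0.863. This scale is nearly linear for values under 1 FPKM and logarithmic for beta globin, which by itself can lower r between them. How much of the gap comes from the scale was not tested. WT replicate 1 on high fat weighs on each of these values, and all 7 genes were measured in the same libraries.

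The other genes of the pathway were described by 5 lists, with 66 genes above 0 in any sample, the 7 members included. Among these, 23 were higher in every WT high fat sample than in any WT chow sample and 2 were lower, and their median log2 difference was 0.16. The counts differed with level. Of the 25 genes with a mean under 1 FPKM over the 12 samples, 17 were higher without overlap and none lower, compared with 5.51% of the 7100 genes at such a mean. Leaving out the 5 low members it was 12 of 20. Of the 41 genes with a mean of 1 FPKM or more, 6 were higher and 2 lower, compared with 6.19% and 6.81% of the 11489 genes at such a mean. No gene of the lists passed limma's test in any comparison.

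Among globin chains, the alpha globin row Hba-a1,Hba-a2 followed the beta row, at 720, 387 and 587 FPKM in WT mice on chow and 2363, 1075 and 1731 FPKM on high fat (log2 difference 1.58, limma adjusted p = 0.119). The embryonic chains Hbb-y and Hba-x were listed at 0 in all samples, and Hbb-bh1 was above 0 in 1 sample. A further row, Beta-s, is a RefSeq synonym of Hbb-bs, an adult beta globin of some strains, and ran from 360 to 1775 FPKM. Haem synthesis and iron supply had 15 genes, all past the filter, with a median log2 difference of 0.06 for diet in WT mice. Alas2 and Alad were higher without overlap, as were 5.93% of all genes, and Slc11a2, an iron transporter, was lower, as were 5.78%. Alad, the enzyme after Alas2 in the pathway, was at 46.5, 45.9 and 41.7 FPKM on chow and 81.3, 63.7 and 59.1 FPKM on high fat in WT mice (0.58, limma adjusted p = 0.0906). Its KO samples lay between 48.5 and 54.0 FPKM on both diets. The later enzymes Urod and Fech, and Tmem14c, a porphyrin carrier, overlapped between diets, as did Tfrc, the transferrin receptor. These enzymes serve haem synthesis in muscle as well, and Urod and Fech were between 39.9 and 72.8 FPKM in all samples.

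The membrane and skeleton list had 20 genes, 10 of them higher without overlap in WT mice on high fat and 1, Gypc, lower. Of all genes 5.93% were higher in this way and 5.78% lower. Rhd, the Rh protein, was at 1.36, 0.163 and 1.17 FPKM and Kel, the Kell antigen, at 0.558, 0.0973 and 0.284 FPKM in the WT high fat samples, both named after their values were seen. In KO replicate 1 on chow, Rhd was at 0.210 FPKM, above WT replicate 2 on high fat, and Kel at 0.0588 FPKM, below it. Skeleton genes that muscle also uses did not separate the diets in WT mice, among them Ank1, with 32.6 to 56.6 FPKM over all samples, Spnb1 (28.2 to 44.4), Tmod1 (41.9 to 65.3) and Epb4.1 (18.5 to 30.7). Aqp1, the water channel of red cells and capillary endothelium, was between 133 and 325 FPKM.

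Of 13 genes for transcription and growth control, 4 were higher without overlap in WT mice on high fat, beside 5.93% of all genes. Besides Klf1 and Hemgn, the 4 were Nfe2, a factor of red cells and platelets, at 1.58, 0.124 and 0.897 FPKM, and Gfi1b at 0.371, 0.0654 and 0.138 FPKM, both named after their values were seen. Nfe2 was at 0.275, 0.184 and 0.188 FPKM in KO mice on chow, each above WT replicate 2 on high fat. Gfi1b was above that WT sample in KO replicate 1 on chow, at 0.120 FPKM. Gata1 overlapped, at 0.285, 0.193 and 0.495 FPKM on high fat and 0, 0.286 and 0.0300 FPKM on chow. The more abundant factors of the list, Ldb1, Lmo2, Lyl1, Zfpm1 and Tal1, are shared with other cells, and none separated the diets in WT mice. Among 15 genes for red cell enzymes and late maturation, 5 were higher without overlap and none lower, beside the same share of all genes. Car1, the red cell carbonic anhydrase, was at 3.02, 0.525 and 1.60 FPKM in the WT high fat samples and at most 0.574 FPKM elsewhere. Cat, the catalase of most tissues, was higher in WT mice on high fat too, at 84.5, 81.8 and 90.1 FPKM against 60.3, 64.9 and 55.3, but KO mice were between 63.3 and 92.9 FPKM. Prdx2, Bpgm, Bnip3l and Tmcc2, which muscle also expresses, overlapped between the diets.

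**Figure D4:**
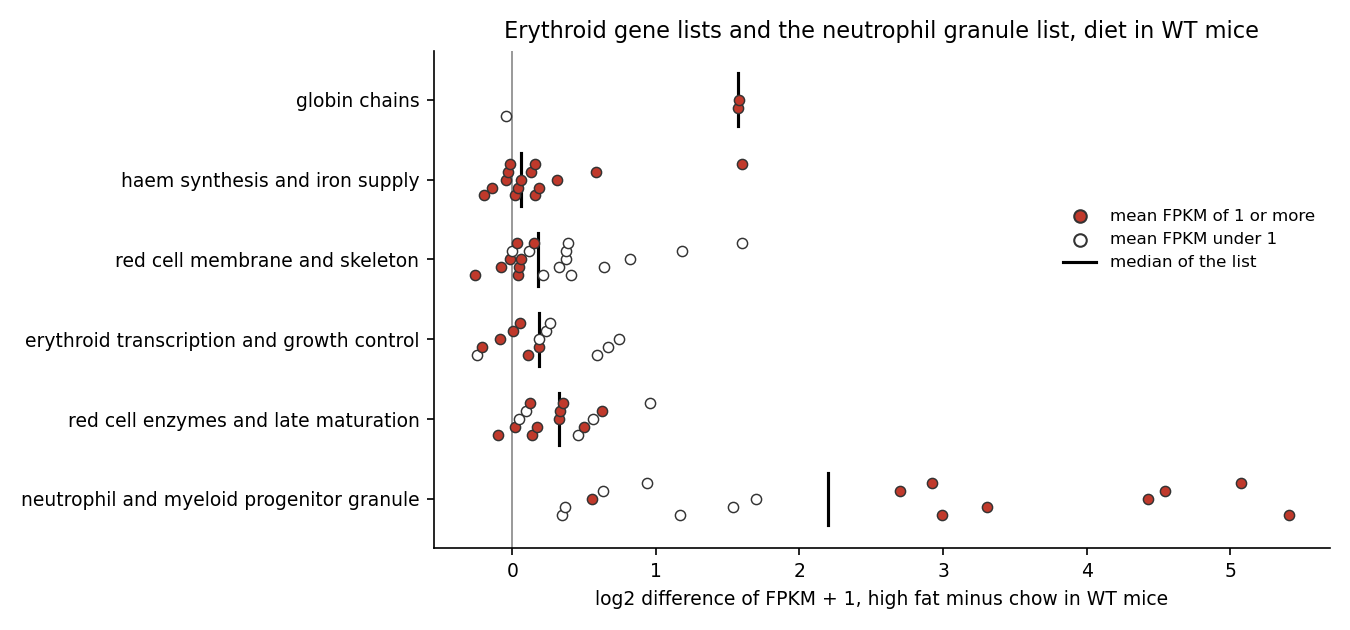
Difference between high fat and chow in WT mice on the log2(FPKM + 1) scale (horizontal axis) for each gene of 5 red cell lists and of a neutrophil list (rows), filled where the gene's mean over 12 samples was 1 FPKM or more and open where it was lower, with a bar at each list's median. The alpha globin row, the Hbb-b1,Hbb-b2 row, Alas2 and Slc4a1 lie farthest right among red cell genes, between 1.57 and 1.60. The third globin row, Hbb-bh1, lies at -0.04. Haem enzymes other than Alas2 reach at most 0.58, and the neutrophil genes reach 5.41.

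Among genes past the filter, those most like the mean standardized profile of the 7 members over the 12 samples were ranked by Pearson's r on log2(FPKM + 1). The first 10 were Lcn2 (0.979), Ltf (0.975), Chi3l3 (0.969), Mpo (0.951), Prg2 (0.950), Camp (0.949), Zfp385b (0.944), Ngp (0.936), Elane (0.932) and 0610040J01Rik (0.920). Lcn2, Ltf, Camp and Ngp encode granule proteins of maturing neutrophils, Mpo and Elane those of their earlier precursors, and Prg2 the major basic protein of eosinophils. By Spearman's rho the list was led by Beta-s and the alpha globin row, and 1 of the 10, Lcn2, stayed among the 10 most alike. By r within groups 4 stayed, and without the highest sample 7, so the order rests in part on WT replicate 1 on high fat. Taken singly, and again among genes past the filter, beta globin was most like Beta-s (r = 0.998), the alpha globin row (0.988) and Alas2 (0.978). Slc4a1 was most like Ltf (0.995), Lcn2 (0.989) and Chi3l3 (0.983), and Ermap most like Ltf (0.988). For Klf1 it was Mpo (0.967), and for Hemgn (0.978) and Rhag (0.968) Prg2. The 5 low members were not candidates in this ranking. With each other, r was 0.984 for Slc4a1 with Ermap, 0.980 for Klf1 with Rhag, 0.983 for Hemgn with Ermap and 0.984 for Rhag with Ermap, so Klf1, Hemgn and Rhag were each more like another member than like any gene past the filter. Alas2 was nearest to the globin rows, at 0.978 for beta and 0.976 for alpha.

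Markers of other blood and tissue cells were summed beside these genes. The 16 neutrophil and myeloid precursor granule genes summed to 1240, 134 and 482 FPKM in the WT high fat samples and 4.75, 31.9 and 8.17 FPKM on chow. In KO mice the sum was 146, 19.0 and 49.7 FPKM on chow and 47.7, 19.0 and 13.3 FPKM on high fat. The highest samples thus had the order they had for Slc4a1, except that KO replicate 1 on chow, below WT replicate 2 on high fat for Slc4a1, was above it for the sum. Of the 16 genes, 12 were higher without overlap in WT mice on high fat than on chow, beside 5.93% of all genes, and none of the 16 was at 0 in a whole group. S100a8 and S100a9 led the sum, at 522 and 378 FPKM in WT replicate 1 on high fat. None passed limma's test for diet in WT mice (lowest adjusted p = 0.0802). Whether cells of that kind have a part in the red cell differences was not tested.

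**Figure D5:**
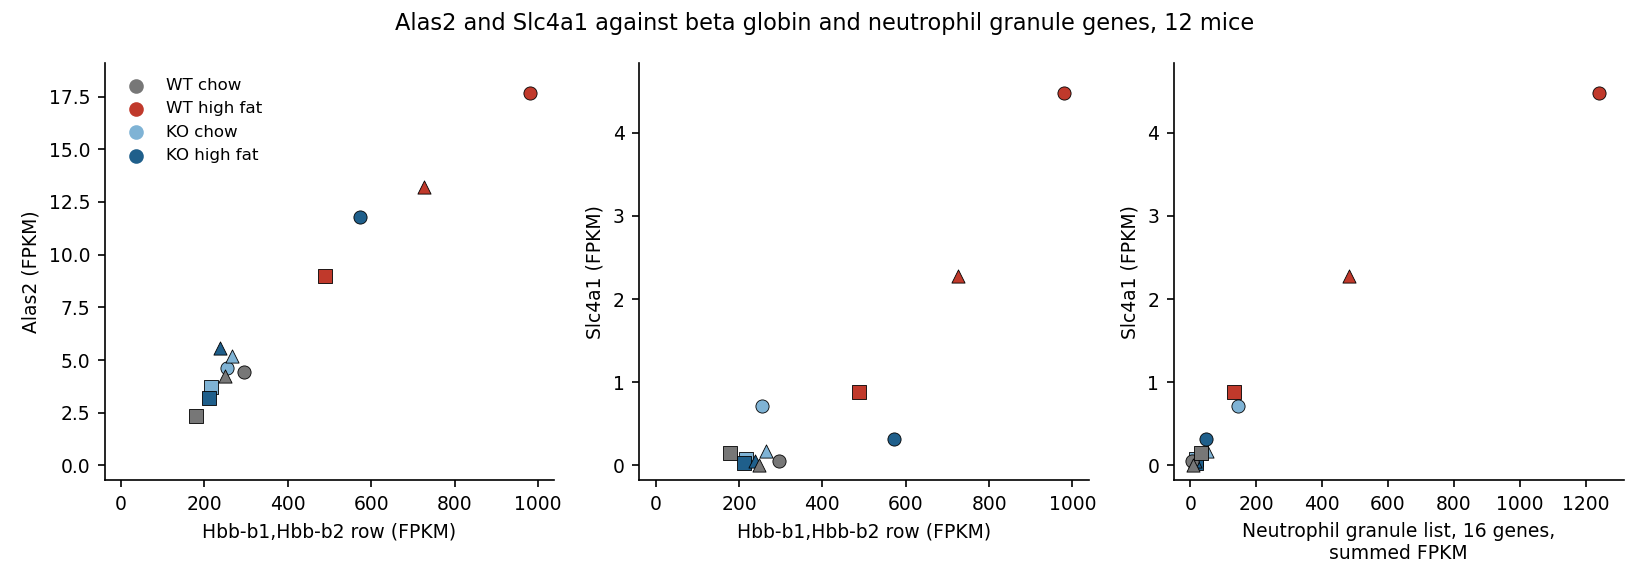
Scatter of 12 mice, by group (colour) and replicate (shape), of Alas2 against the Hbb-b1,Hbb-b2 row (left), Slc4a1 against that row (middle) and Slc4a1 against the summed FPKM of 16 neutrophil granule genes (right), all linear FPKM. KO replicate 1 on high fat, at 572 FPKM of beta globin, lies with the WT high fat mice for Alas2 (11.8 FPKM) but not for Slc4a1 (0.314 FPKM).

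The other lists were summed in the same way. Beside their counts, 5.93% of all genes were higher without overlap in WT mice on high fat, so small counts in lists this short tell little. Megakaryocyte and platelet genes summed to 22.6 to 25.3 FPKM in WT mice on chow and 23.9 to 34.6 FPKM on high fat, with 3 of 10 higher without overlap. Ppbp, the platelet basic protein, was at 6.76, 1.59 and 9.39 FPKM in the WT high fat samples and at most 2.72 elsewhere, while Pf4, the platelet factor of the same granules, was at 9.78, 16.7 and 17.5 FPKM against 16.8 to 19.5 on chow. Developing B cell genes were high in another set of mice, at 47.9 FPKM in WT replicate 2 on chow, 55.3 and 51.9 FPKM in KO replicates 1 and 3 on chow, and 3.14 to 9.99 FPKM in the other 9. Genes of bone-forming and bone-resorbing cells summed to 139 to 240 FPKM in the WT high fat samples and 58.3 to 131 FPKM on chow, where Col1a1, also made by fibroblasts, was most of the sum. Bglap and Bglap2, the osteocalcins of osteoblasts, stood at 21.5 and 17.1 FPKM in WT replicate 3 on high fat and at most 0.151 FPKM in any other sample. Proliferation genes summed to 5.53 to 11.1 FPKM in the WT high fat samples and 5.56 to 13.6 FPKM on chow, with none of 12 separating the diets. Endothelial genes summed to 190 to 269 FPKM over the 12 mice, with 2 of 10 higher without overlap in WT mice on high fat. Skeletal muscle fibre genes summed to 49769 to 99528 FPKM, with 2 of 12 higher without overlap, the lowest sum being one of the samples with Acta1 at 0. Myh4 was listed at 0 in every sample. The part of these cells in the differences was not tested.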

How the data were processed

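Total RNA of hind limb muscle from 12 mice was made into TruSeq libraries and sequenced in paired-end reads by the authors. They deposited 1 FPKM value per gene and sample, without pooling replicates. The submitters' processing notes name TopHat2 2.0.8b, Cuffdiff 2.1.1 and the build mm10, without giving their settings, and the unit FPKM was read from these tools and the values. Depth is unknown, so no counting interval was computed, and median-of-ratios size factors lay between 0.998 and 1.01. Replicates are separate mice.

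Where a symbol had several rows, the one with the highest mean entered. Genes with at least 1 FPKM in at least 3 samples were fitted as log2(FPKM + 1) in limma 3.58.1 (R 4.3.3), with 4 group means and an intensity trend, with Benjamini-Hochberg adjustment of the two-sided p-values (threshold 0.05). Members below the filter were taken from the same fit of all genes above 0 in any sample, 18589 in all. The fit was tested on simulated data. Other values came from Python 3.11.15, NumPy 2.4.6 and pandas 2.3.3, and plots from matplotlib 3.10.9. Positions are from GENCODE M21 and promoters from RefSeq.

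The members, the lists and the tests were chosen with earlier results of these data known. Genes named are the members, Cryab and Hspb2, the most abundant genes of each list, those past the threshold, the 10 most like the members' profile and the 3 most like each member, and others were named after their values were seen. Alternatives were a pseudocount of 0.1, no filter, a block for the replicate number, a fit of the compared groups alone, no intensity trend, size factors, each sample left out, and other measures of likeness.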

Additional observations from a re-analysis of the deposited data

Results flagged for a closer look

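Hemgn separated the diets in both genotypes, with opposite order. Every WT sample on high fat was above every WT sample on chow, and every KO sample on high fat was below every KO sample on chow, as were 5.93% and 6.66% of all genes in each comparison alone. The difference was 0.59 in WT mice (limma adjusted p = 0.354) and -0.14 in KO mice (0.776), and neither passed. Slc4a1, Klf1, Rhag and Ermap also had opposite signs in the genotypes, with overlapping KO groups. The Hemgn diet difference in KO mice minus that in WT mice was -0.73 on the log2(FPKM + 1) scale (SE 0.25). In limma's interaction test it had an adjusted p of 0.658 and did not pass. The KO values lay between 0.0156 and 0.252 FPKM, close to the lowest value listed above 0.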

How the results depend on the processing

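Over 598 recomputed member differences, 582 kept their direction and their side of the threshold, 7 changed sign and 9 came to pass it. The 9 are the limma calls without replicate 2 of the WT mice on high fat, the lowest of its group for each gene. Differences that changed sign did so with 1 sample left out, within ranges of -0.055 to 0.75 for Alas2 and -0.12 to 0.59 for beta globin, diet in KO mice, -0.15 to 0.21 for beta globin, genotype on chow, -0.082 to 0.020 and -0.041 to 0.010 for Klf1 and Rhag, diet in KO mice, and -0.00094 to 0.10 for Klf1, genotype on chow. None of these passed the test in any setting.

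Counts over all genes were less steady. Using only the groups compared, 3 genes passed for diet in WT mice, 15 for diet in KO mice, 4 for genotype on chow and 8 for genotype on high fat. Without the filter, 6 passed for diet in KO mice, 24 for genotype on high fat, 1 for the interaction and 42 for genotype averaged over diets, and without the intensity trend 2 for diet in KO mice. With 1 sample left out, 1 to 32 of the filtered genes passed for diet in WT mice, 0 to 10 for diet in KO mice, 4 to 14 for genotype on chow, 4 to 82 for genotype on high fat, 0 to 1 for the interaction, 10 to 1200 for genotype averaged over diets and 1 to 18 for diet averaged over genotypes. Without the filter these ranges, in the same order, were 0 to 69, 2 to 65, 5 to 47, 6 to 74, 0 to 13, 11 to 86 and 1 to 43. The cause was not tested.

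Same-numbered samples did not deviate together in every pair (correlations from -0.81 to 0.39), so the numbers were not taken to pair the mice. With a replicate block, 7 genes passed for diet in WT mice, 4 for genotype on chow, 5 for genotype on high fat, 40 for genotype averaged over diets and 1 for diet averaged over genotypes, and no member's call changed. The unknown depth leaves the counting error of low values unstated.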
